A study of Mus musculus with 3 samples.

Results

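The genes described here are 8 cytochrome P450 genes of drug metabolism, Cyp3a11, Cyp3a13, Cyp3a16, Cyp3a25 and Cyp3a41a on chromosome 5 and Cyp2b9, Cyp2b10 and Cyp2b13 on chromosome 7. They were chosen by name, and all 8 were found among the 22367 protein-coding genes of GENCODE M1. The annotation holds 14 genes of both families, and the other 6 (Cyp3a41b, Cyp3a44, Cyp3a57, Cyp3a59, Cyp2b19 and Cyp2b23) were used for comparison. ChIP-seq, which sequences the DNA that an antibody to a protein pulls down, was done for the nuclear receptors RXRα and RARα in liver of wild type male C57BL/6 mice aged 3 months. The third library was input, the sheared DNA that no antibody has enriched, and its title ties it to RXRα. No treatment is given for any of the 3 libraries. There was 1 library for each antibody and 1 for input, so differences between genes have counting error but no replicate error. Gene expression was not measured in these libraries, and the liver label could not be checked against marker genes.

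In NCBI37/mm9, Cyp3a11 (ENSMUSG00000056035.7) lies at chr5:146666002-146691540 on the minus strand, and Cyp3a13 (ENSMUSG00000029727.7) lies at chr5:138334160-138362847 on the minus strand. Cyp3a16 (ENSMUSG00000038656.5) lies at chr5:146197178-146230592 on the minus strand, Cyp3a25 (ENSMUSG00000029630.9) at chr5:146788770-146821194 on the minus strand, and Cyp3a41a (ENSMUSG00000075551.3) at chr5:146505635-146531712 on the minus strand. Cyp2b9 (ENSMUSG00000040660.6) lies at chr7:26958430-26995680 on the plus strand, Cyp2b10 (ENSMUSG00000030483.8) at chr7:26682639-26711643 on the plus strand, and Cyp2b13 (ENSMUSG00000040583.6) at chr7:26846514-26881215 on the plus strand. Except for Cyp3a13, the Cyp3a members form a cluster on chromosome 5, in which Cyp3a11, Cyp3a16, Cyp3a25 and Cyp3a41a lie among the other Cyp3a genes. The RXRα and input tracks each held 10000000 reads, which for RXRα is not the full depth that the study describes. The RARα list held 143280 peaks with scores from 5 to 382 and a median of 12, of which 32946 were above 20.

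Cyp3a and Cyp2b enzymes oxidize drugs, steroids and other foreign compounds in hepatocytes. Their genes are textbook targets of the xenobiotic receptors PXR (encoded by Nr1i2) and CAR (Nr1i3), each of which binds DNA as a heterodimer with RXRα. RARα is the retinoic acid receptor and uses the same partner. Such heterodimers bind pairs of half-sites, AGGTCA or a close variant, that stand as direct repeats (DR, followed by the number of bases between them) or as everted repeats (ER). Cyp3a11 is the main Cyp3a gene of adult mouse liver, and Cyp2b10 is the classical gene that phenobarbital induces through CAR. Cyp3a16 is known from fetal and newborn liver, while Cyp3a41a, Cyp2b9 and Cyp2b13 are known for higher expression in female liver. All of these roles are background, and none was measured here.

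The sequences under some of the highest RXRα bins near the 8 genes could be aligned between genes, and several carried half-sites. Positions are given from the 5′ end of the gene, negative upstream, in NCBI37/mm9. The 300 bases upstream of all 9 Cyp3a genes except Cyp3a13 were searched for the letters CACACAGAA. A stretch of 45 bases that begins with them was found in 7 genes, and was chosen after these sequences had been compared. It is printed on the strand of each gene, with exact half-sites (AGGTCA or AGTTCA, on either strand) in capitals, since RXRα reads at the promoters differed widely while the stretch could be aligned. The coordinates are chr5:146821346-146821390 for Cyp3a25, chr5:146890637-146890681 for Cyp3a59, chr5:146105944-146105988 for Cyp3a57, chr5:146691571-146691615 for Cyp3a11, chr5:146230725-146230769 for Cyp3a16 and chr5:146531841-146531885 for Cyp3a41a.
Cyp3a25: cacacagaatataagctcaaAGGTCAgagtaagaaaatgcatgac
Cyp3a59: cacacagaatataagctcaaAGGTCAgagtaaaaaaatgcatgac
Cyp3a57: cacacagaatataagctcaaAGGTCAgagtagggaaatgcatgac
Cyp3a11: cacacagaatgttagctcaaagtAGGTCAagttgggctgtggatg
Cyp3a16: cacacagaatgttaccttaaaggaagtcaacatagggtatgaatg
Cyp3a41a: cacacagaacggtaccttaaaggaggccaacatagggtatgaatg

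The stretch of Cyp3a41b had the same letters as that of Cyp3a41a. The letters AGCTCA, which differ from a half-site at 1 base, stood before AGGTCA with 1 base between them in Cyp3a25, Cyp3a59 and Cyp3a57 and with 4 bases between them in Cyp3a11. These are arrangements of the DR1 and the DR4 kind. In these 4 genes another exact half-site began at the end of the stretch and was cut by it, so it is not in capitals. It was TGACCT in Cyp3a25, Cyp3a59 and Cyp3a57 and TGAACT in Cyp3a11. The stretches of Cyp3a16, Cyp3a41a and Cyp3a41b held neither AGCTCA nor an exact half-site. Within 200 bp of the stretch, the highest bin had 149 RXRα reads in Cyp3a25, 145 in Cyp3a59, 69 in Cyp3a57 and 39 in Cyp3a11. It had 5 reads in Cyp3a16 and 0 in both Cyp3a41a and Cyp3a41b. The 4 promoters with a half-site in the stretch were therefore all above the 3 without one. Input was also higher at the first 4 genes, where its highest bin had 7, 6, 7 and 8 reads, than at the other 3, with 2 in Cyp3a16, 1 in Cyp3a41a and 2 in Cyp3a41b. The uniqueness of the same windows differed as well. The share of runs of 36 bases found once in the genome was 62.7% in Cyp3a25, 54.8% in Cyp3a59, 81.1% in Cyp3a57, 99.8% in Cyp3a11, 47.0% in Cyp3a16, 9.89% in Cyp3a41a and 13.9% in Cyp3a41b, and the part of uniqueness and input in the RXRα read counts was not tested. The 4 and the 3 genes were set apart after their sequences and reads had been seen, so the order is a description. Cyp3a44 did not hold the 9 letters, and Cyp3a13 was not searched for them. Cyp3a13 had 64 RXRα reads just upstream of its start with no exact half-site within 100 bp of that summit. RXRα reads at a Cyp3a promoter thus also occurred without an exact half-site. A half-site also occurred without RXRα reads, since the RefSeq promoter of Cyp3a41a (300 bases around the start) held 1 outside the stretch. An exact half-site was in 27.6% of all 27025 RefSeq promoters.

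**Figure D1:**
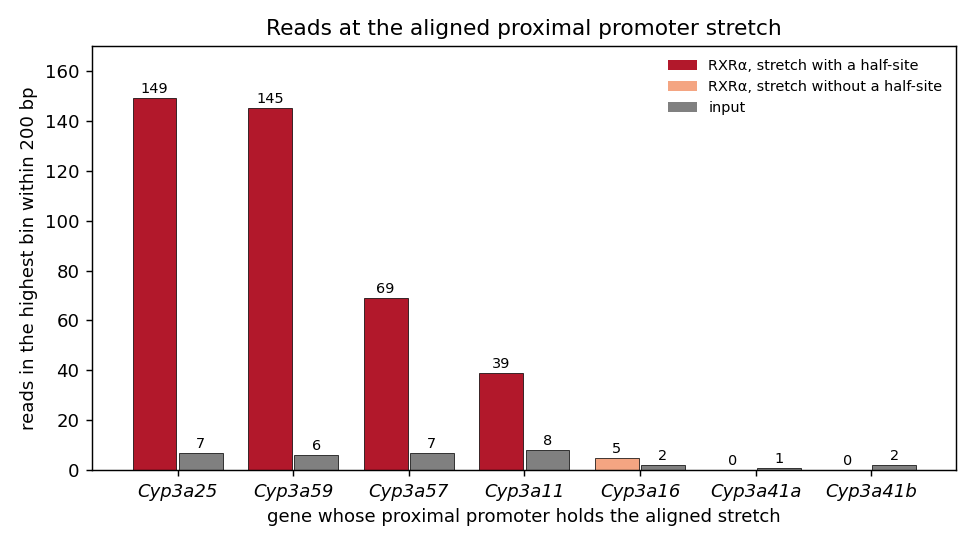
Reads in the highest 32 bp bin within 200 bp of the aligned promoter stretch of 7 Cyp3a genes, for RXRα (dark red, stretch with an exact half-site; light red, without one) and input (grey). RXRα had 39 to 149 reads at the 4 stretches with a half-site and 0 to 5 at the other 3, and input had 6 to 8 and 1 to 2 reads.

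The annotated start matters for Cyp3a11. The stretch lay at -75 from its GENCODE start, while in the other 6 genes it lay between -204 and -173. The RefSeq start of Cyp3a11 lies 110 bases inside the GENCODE gene, and from there the stretch begins at -185.

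The second set of sequences comes from intron 7, where 4 Cyp3a genes besides Cyp3a41b had an RXRα summit and a common element. In each, TGACCT and AGTTCA stood 11 bases apart. This is an everted arrangement, but its spacing is not that of ER6, the only everted repeat that was searched. The 53 bases around them are printed on the strand of the gene, with the half-sites in capitals, to show how little they differ. The coordinates are chr5:146679169-146679221 for Cyp3a11, chr5:146215420-146215472 for Cyp3a16, chr5:146519096-146519148 for Cyp3a41a and chr5:146604957-146605009 for Cyp3a44.
Cyp3a11: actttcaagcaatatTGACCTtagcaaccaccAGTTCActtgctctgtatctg
Cyp3a16: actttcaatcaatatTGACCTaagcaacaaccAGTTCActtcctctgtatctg
Cyp3a41a: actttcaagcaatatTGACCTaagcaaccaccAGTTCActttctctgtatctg
Cyp3a44: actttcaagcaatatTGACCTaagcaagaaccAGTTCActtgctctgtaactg

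The RXRα summit of this element had 103 reads in Cyp3a11, 59 in Cyp3a16, 84 in Cyp3a41a, 98 in Cyp3a41b and 92 in Cyp3a44. Input had 11, 2, 3, 3 and 6 reads in the same bins. Local alignment gave 95.3% identity between the elements of Cyp3a11 and Cyp3a41a, 94.4% between Cyp3a11 and Cyp3a44 and 89.2% between Cyp3a11 and Cyp3a16. No RARα peak of any score lay at these summits. Cyp3a16, Cyp3a41a and Cyp3a41b, with 0 to 5 RXRα reads at the promoter stretch, thus had 59 to 98 at this element.

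The third sequence lies upstream of Cyp2b10, at chr7:26680319-26680378, in the part of the gene that is known for the phenobarbital-responsive enhancer. It is printed because it holds a DR4-like repeat, with both half-sites in capitals, near an RXRα summit and a RARα summit.
Cyp2b10: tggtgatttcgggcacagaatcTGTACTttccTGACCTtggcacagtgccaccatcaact

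TGACCT is the reverse complement of AGGTCA, and the letters before it differ from the reverse complement of AGTTCA at 1 base. The repeat lies at chr7:26680341-26680356. The RXRα summit was at -2270 with 83 RXRα reads and 6 input reads, and the summit of a RARα peak with a score of 22 was at -2254. A DR5-like repeat, also with 1 half-site that differs at 1 base, lay within 100 bp of both summits. It is at chr7:26680415-26680431, outside the bases printed, so the DR4-like repeat was not the only one at this place. The RXRα region called here, chr7:26680385-26680512, held the DR5-like repeat and not the DR4-like one.

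Across the 8 genes, all had at least 1 RXRα region within 10 kb of the start, against 39.8% of all protein-coding genes. A region is a run of bins in which RXRα was at least 20 times input. With 30 times input, 5 of the 8 genes kept a region, against 27.9% of all genes, and Cyp3a11, Cyp3a16 and Cyp2b9 did not. With regions of at least 2 bins, 6 of the 8 kept one, against 34.6% of all genes. Cyp3a16 and Cyp2b9 did not, since their only region within 10 kb was a single bin of 32 bp. Within 1 kb of the start, 3 of the 8 (Cyp3a11, Cyp3a13 and Cyp3a25) had a region, against 21.6% of all genes. Over the gene body, 5 of the 8 had an RXRα region, against 33.9% of all genes, and those without one were Cyp3a11, Cyp3a25 and Cyp2b9. A RARα peak with a score above 20 lay within 10 kb of 3 genes (Cyp3a11, Cyp3a13 and Cyp2b10), against 52.2% of all genes, and over the body of the same 3, against 42.5%. Co-localization of RARα with an RXRα region was found at 2 genes (Cyp3a13 and Cyp2b10), against 23.5% of all genes. All 8 genes thus had an RXRα region, while the counts with a RARα peak or a co-localized one were within about 1 gene of the background shares.

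**Figure D2:**
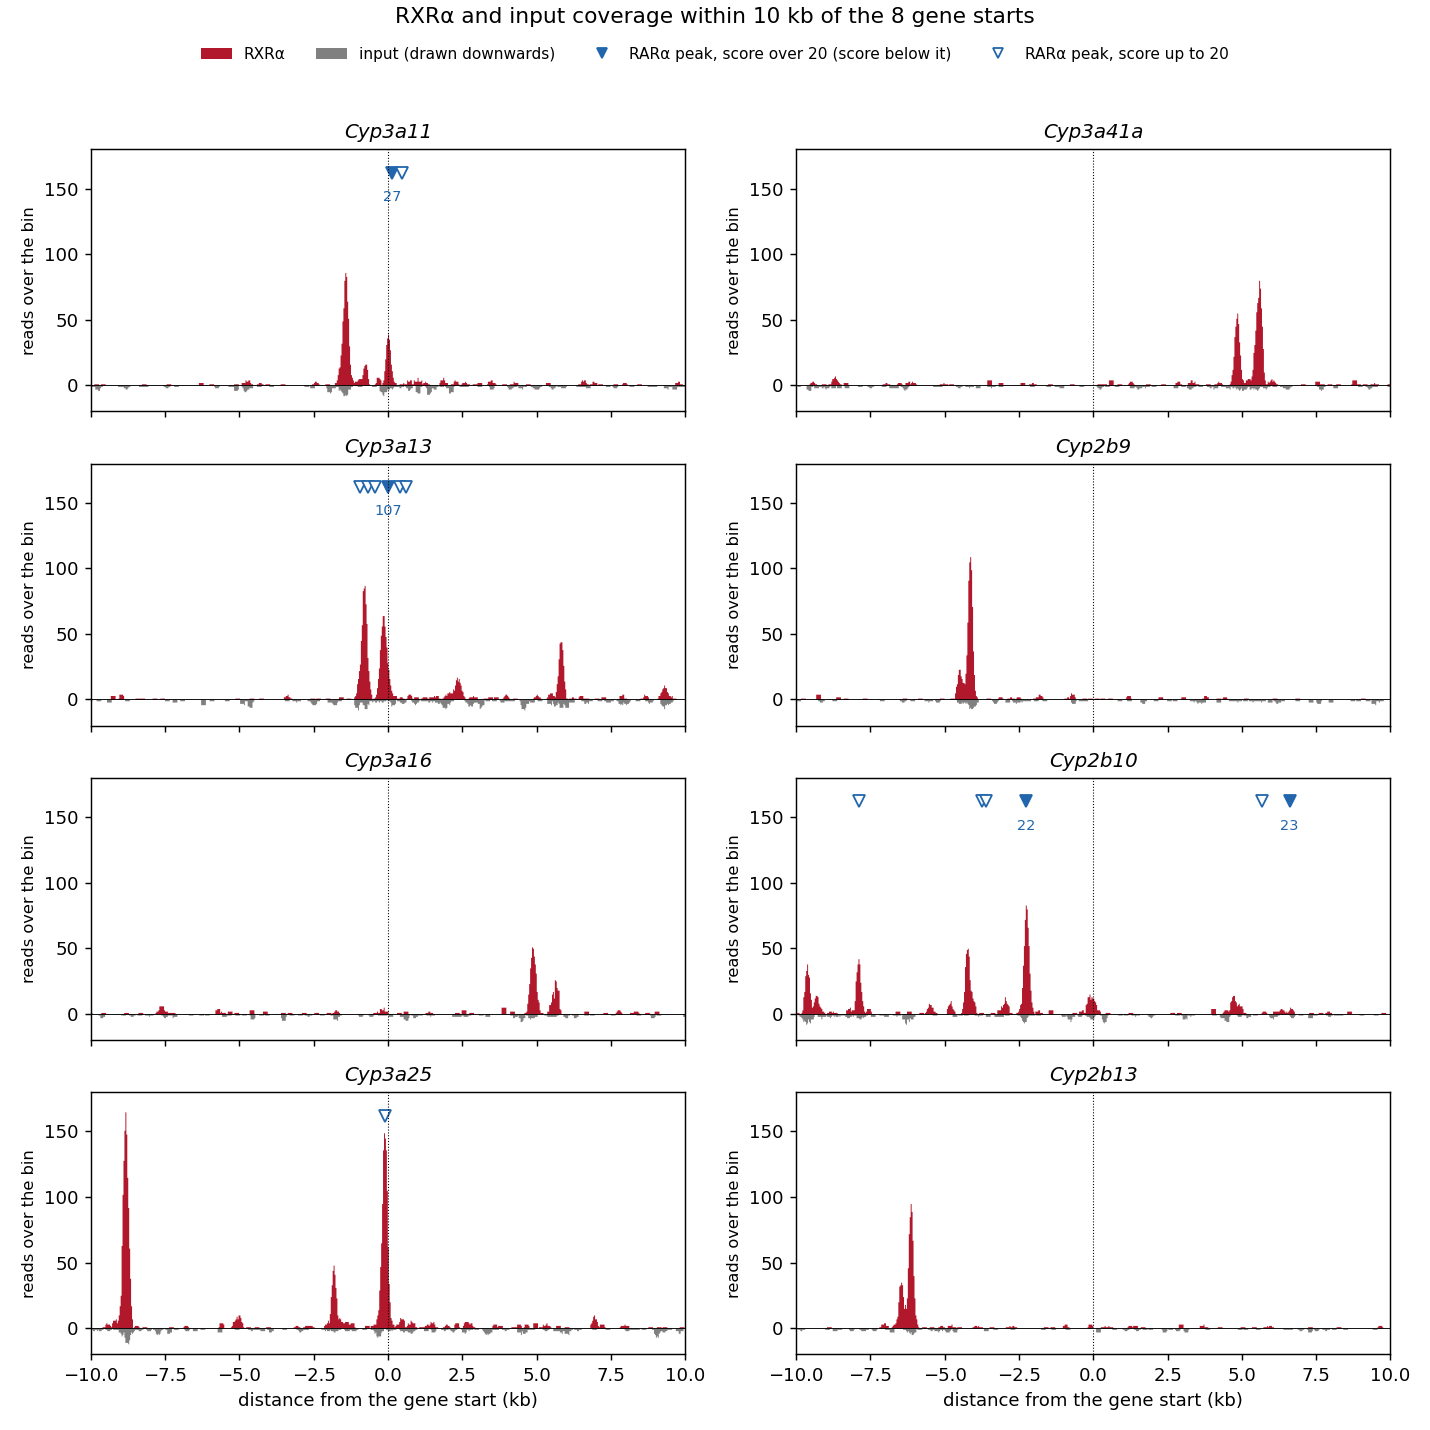
RXRα coverage (red, upwards) and input coverage (grey, downwards) in reads per 32 bp bin within 10 kb of the 8 gene starts, with RARα peaks as triangles. Upstream peaks stand out at Cyp3a11, Cyp3a25, Cyp2b9, Cyp2b10 and Cyp2b13, peaks at or just before the start at Cyp3a11, Cyp3a13 and Cyp3a25, and peaks in the gene at Cyp3a16 and Cyp3a41a.

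The 8 genes held 23 RXRα summits, which are the highest bins of at least 20 RXRα reads within 10 kb of the start or over the body. Every gene had such a bin within 10 kb, against 39.5% of all genes. The summits had between 20 and 169 RXRα reads with a median of 64, and between 0 and 11 input reads with a median of 3. Upstream sequence held 12 of them, introns 10 and an untranslated exon 1. Of the 23, 4 lay within 1 kb of the start. The shares of all summits in these places were not calculated, so these counts have no background beside them. Since summits were chosen for their RXRα reads, their RXRα reads and ratios below are descriptions. Input did not choose them and was raised there as well, with 23.2 reads per kb in the 320 bp around them against 6.51 per kb over the windows. In 14 of the 23, the highest bin was below 20 times input, and some regions therefore mark the flank of a peak and not its top. The share of all summits below 20 times input was not calculated either.

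**Figure D3:**
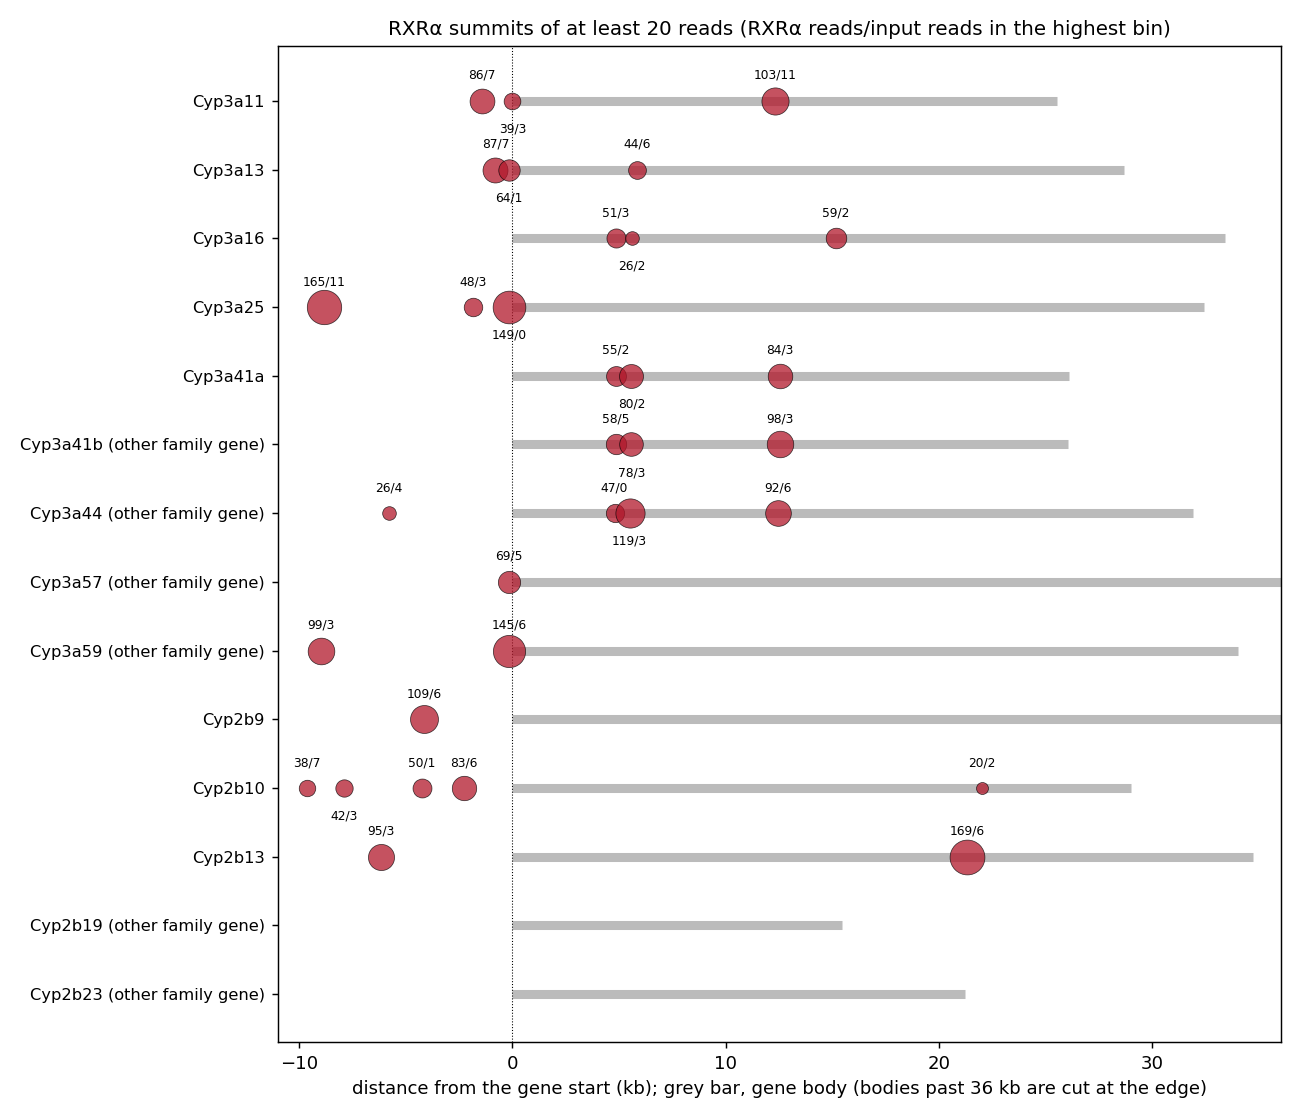
Position of each RXRα summit of at least 20 reads from the gene start for the 14 Cyp3a and Cyp2b genes; circle area is proportional to RXRα reads and the numbers are RXRα reads and input reads in the highest bin. Cyp3a41a, Cyp3a41b and Cyp3a44 share 3 positions in the gene, Cyp3a25 and Cyp3a59 share a start and a distal position, and Cyp2b19 and Cyp2b23 have none.

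Cyp3a25 had the most RXRα reads of the 8 genes. Its proximal summit at -135 had 149 RXRα reads and 0 input reads in the bin, with 203 and 4 reads in 320 bp, a ratio of 50.8 (95% interval 19.5 to 188). The distal summit at -8839 had 165 RXRα reads and 11 input reads, with 224 and 17 in 320 bp, a ratio of 13.2 (8.05 to 23.0). Another summit at -1831 had 48 and 3 reads. At the proximal summit a RARα peak with a score of 12 had its own summit at -91, below the threshold of 20 and the only RARα peak within 10 kb. Over the body of Cyp3a25 there were 180 RXRα reads against 311 of input, or 0.579 (0.479 to 0.698). RXRα coverage of this gene thus lay upstream and not in the gene. Cyp3a59, which is not a member, had the same pair, with 145 RXRα reads and 6 input reads at -161 and 99 and 3 at -8961. The 2 proximal elements were 94.8% identical and the 2 distal ones 95.7%. In the distal pair, AGTTCA was part of a DR2, a DR3 and an ER6 arrangement when the other half-site could differ at 1 base, which 2.32%, 1.36% and 0.596% of all 42117 RXRα regions also held.

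Cyp3a13 had the highest RARα score of the 8 genes. The RARα peak with a score of 107 had its summit at 12 in an untranslated exon, and it overlapped an RXRα region whose highest ratio, 66.4, came from 40 RXRα reads and 0 input reads at -50. The RXRα summits nearby were at -146 with 64 RXRα reads and 1 input read and at -786 with 87 and 7. In 320 bp these gave ratios of 50.5 (13.6 to 423) and 13.2 (6.74 to 29.6). A RARα peak with a score of 12 also covered the summit at -786. The last RXRα summit, in intron 3 at 5838, had 44 and 6 reads and no RARα peak. All runs of 36 bases at the 3 summits were found once in the genome. Cyp3a13 was the only one of the 8 genes with a RARα score above 50.

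Cyp3a11 had 3 RXRα summits. The upstream one at -1437 had 86 RXRα reads and 7 input reads, with 115 and 14 in 320 bp, a ratio of 8.21 (4.70 to 15.5). The one at 3 had 39 and 3 reads, with a ratio of 6.71 (3.02 to 17.6) in 320 bp, and it lay inside a RARα peak with a score of 27 whose summit was at 135. The one in intron 7 at 12323 had 103 and 11 reads, with a ratio of 9.62 (5.42 to 18.6). None of the 3 reached 20 times input in its highest bin. The only RXRα region called for Cyp3a11 was a separate run at -733 with 16 RXRα reads and 0 input reads, and the RARα peak was not counted as co-localized. At 10 times input, or with bins of at least 20 RXRα reads whatever the input, it was counted, and 3 of the 8 genes then had a co-localized RARα peak. Of all genes, 38.9% had one at 10 times input and 25.5% with bins of 20 reads, so the count of 3 was near the background at 10 times input.

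Cyp3a16 and Cyp3a41a had their RXRα summits inside the gene. Cyp3a41a had 55 RXRα reads and 2 input reads at 4847, 80 and 2 at 5583, both in intron 3, and 84 and 3 at 12559 in intron 7. In 320 bp the ratios were 14 (5.72 to 44.5), 23.0 (9.58 to 72.2) and 15.7 (6.93 to 43.8). Cyp3a16 had 51 and 3 reads at 4847, 26 and 2 at 5615 and 59 and 2 at 15151, in the same introns. In 320 bp its ratios were 12.2 (5.33 to 34.2), 11.7 (3.68 to 59.3) and 9.11 (4.57 to 20.6), whose intervals overlap with those of Cyp3a41a. The first element was 95.6% and the second 91.0% identical between both genes. Neither gene had a RARα peak of any score within 10 kb of the start or over the body.

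Cyp2b10 had 4 upstream summits within 10 kb, the most of the 8 genes. The one at -2270 on the DR4-like repeat had 106 RXRα reads and 8 input reads in 320 bp, a ratio of 13.3 (6.49 to 31.5). The one at -4222 had 50 RXRα reads and 1 input read in the bin, and 65 and 1 in 320 bp, with a ratio of 65.0 whose interval (11.3 to 2606) is wide because of the single input read. The one at -7902 had 42 and 3 reads inside a RARα peak with a score of 16, and the one at -9630 had 38 and 7 reads with a ratio of 3.46 (1.84 to 6.99), the lowest of the 23. A weak summit in intron 8 at 22018 had 20 and 2 reads. The highest RARα score of Cyp2b10, 23, was in intron 1 at 6606, where the mean RXRα coverage over the peak was 2.42 times input and no region was called. The next highest, 22, was the peak at -2254. All runs of 36 bases at the 4 upstream summits were found once in the genome.

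Cyp2b9 and Cyp2b13 each had 1 summit within 10 kb, and it was upstream. At Cyp2b9 it lay at -4141 with 109 RXRα reads and 6 input reads, and 132 and 10 in 320 bp, a ratio of 13.2 (6.96 to 28.2). At Cyp2b13 it lay at -6145 with 95 and 3 reads, and 115 and 7 in 320 bp, a ratio of 16.4 (7.72 to 41.8). The 2 elements were 99.0% identical over 191 bases, and 68.2% of the runs at Cyp2b9 had an exact copy at Cyp2b13. Cyp2b13 also held the summit with the most reads of the 23, in intron 4 at 21311, with 169 RXRα reads and 6 input reads in sequence that was found once in the genome. A RARα peak with a score of 15 had its summit there at 21251. Over the body of Cyp2b9 there were 86 RXRα reads against 124 of input, or 0.694 (0.521 to 0.920), and no RXRα summit. A RARα peak with a score of 15 in its intron 8, at 27920, had a mean RXRα coverage of 0.690 times input.

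RARα peaks followed a different order. The 26 RARα peaks of the 8 genes had scores from 5 to 107, and 4 of them were above 20. In the whole list, 32946 of 143280 peaks were above 20. Of the 23 RXRα summits, 16 lay outside every RARα peak, 7 lay inside one of any score and 3 inside one with a score above 20 (Cyp3a11 at 3, Cyp3a13 at -146 and Cyp2b10 at -2270). Of the 28840 RXRα summits of all protein-coding genes, found in the same way, 41.3% lay outside, 58.7% inside a RARα peak of any score and 31.2% inside one above 20. The summits of the 8 genes include copied elements and are not independent of each other. Cyp3a16, Cyp3a41a, Cyp2b9 and Cyp2b13 had no RARα peak of any score within 10 kb of the start. The other 4 genes had one, against 67.3% of all genes. The order of the highest RARα score within 10 kb was Cyp3a13 with 107, Cyp3a11 with 27, Cyp2b10 with 23 and Cyp3a25 with 12. The scores have no error, so neighbours in this order could not be compared.

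Over the whole window of 10 kb on either side, the ratio of RXRα to input reads was highest at Cyp3a25 with 658 and 174 reads, or 3.78 (95% interval 3.20 to 4.50). It was 2.95 (2.45 to 3.57) at Cyp2b10 with 448 and 152 reads, 2.63 (2.03 to 3.44) at Cyp2b13 with 216 and 82, and 2.56 (2.05 to 3.22) at Cyp3a41a with 284 and 111. It was 2.49 (2.08 to 2.98) at Cyp3a13 with 438 and 176 reads and 2.33 (1.82 to 3.01) at Cyp2b9 with 217 and 93. The lowest were Cyp3a11 with 287 and 142 reads, or 2.02 (1.65 to 2.49), and Cyp3a16 with 185 and 112, or 1.65 (1.30 to 2.11). Neighbours in this order had overlapping intervals throughout, while the intervals of Cyp3a25 and of the lowest pair did not overlap. All 8 intervals lay above 1 and above the median of 1.09 over all genes. The median was 2.52 over the 8 genes. With all the members pooled the ratio was 2.62, and it was 1.84 when the bins of RXRα regions were left out. Without these bins Cyp2b13 fell to 1.26 (0.924 to 1.71), an interval that includes 1, while the other 7 intervals stayed above 1. Leaving out regions did not take away every peak, since 14 of the 23 summits had a highest bin below 20 times input. The 320 bp around the summits within 10 kb made up 3.6% of the windows. They held 63.3% of the RXRα reads and 12.7% of the input reads there. Summits were chosen for their RXRα reads, so a high share of these reads was set by the choice. The same share at the summits of other genes was not calculated.

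**Figure D4:**
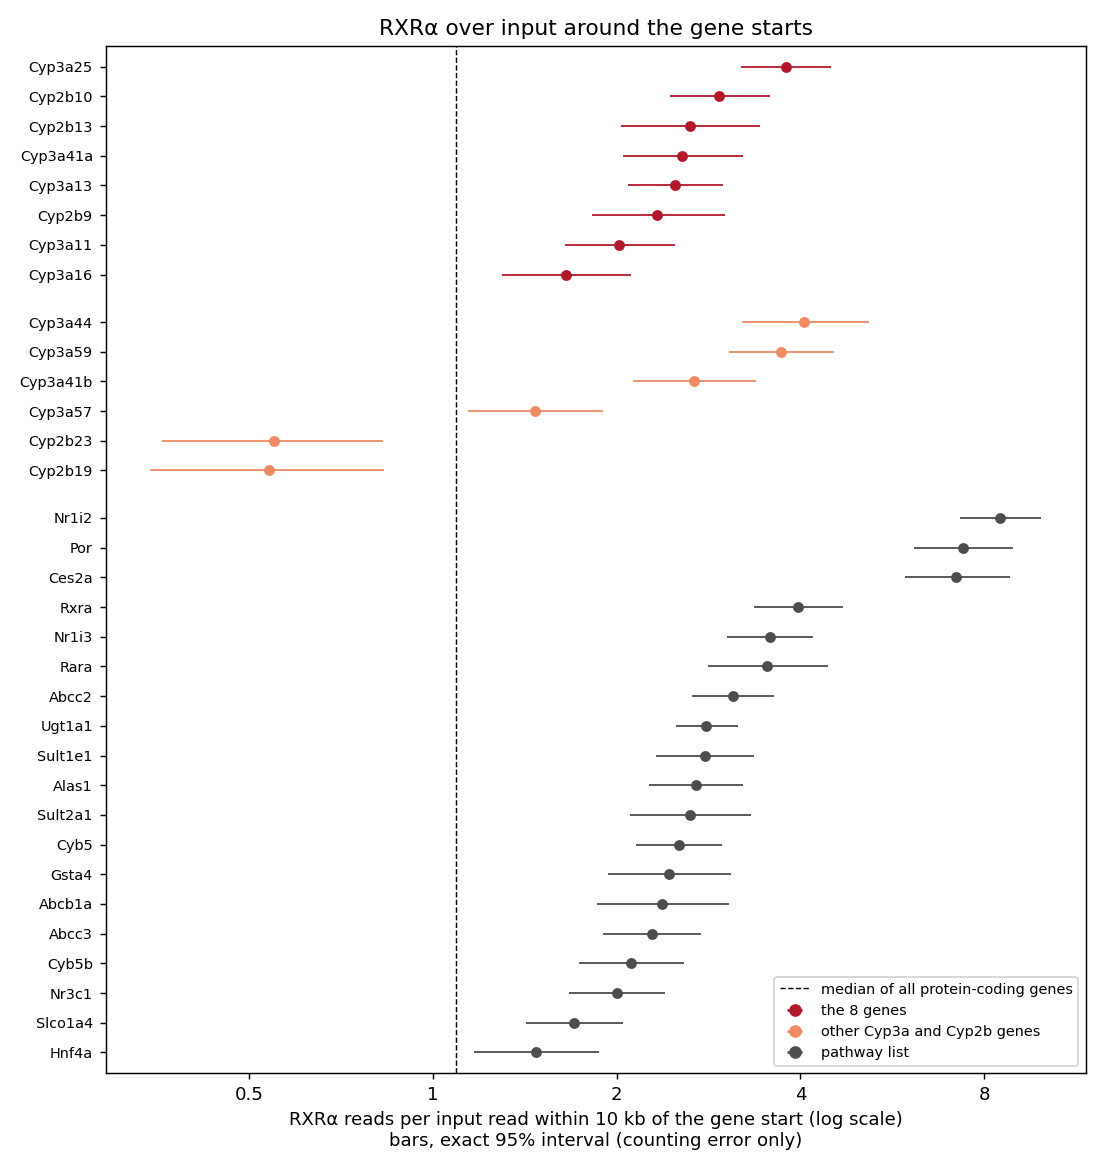
RXRα reads per input read within 10 kb of the gene start on a log scale for the 8 genes (red), the other Cyp3a and Cyp2b genes (orange) and the pathway list (grey), with exact 95% intervals for counting error. The 8 genes sit between 1.65 and 3.78, and Cyp2b19 and Cyp2b23 lie below the dashed median of all genes at 1.09.

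The other 6 genes of both families split. RXRα regions within 10 kb were found at Cyp3a41b, Cyp3a44, Cyp3a57 and Cyp3a59, and at neither Cyp2b19 nor Cyp2b23. The ratio was 4.06 at Cyp3a44, 3.72 at Cyp3a59, 2.68 at Cyp3a41b and 1.47 at Cyp3a57, against 0.540 at Cyp2b19 and 0.551 at Cyp2b23, where no bin had more than 3 RXRα reads. In this window Cyp2b10, Cyp2b9 and Cyp2b13 therefore differed from the other 2 Cyp2b genes by more than counting error, since the intervals did not overlap. Over the body this did not hold for Cyp2b9, whose 0.694 (0.521 to 0.920) stood beside 0.686 (0.433 to 1.08) at Cyp2b19 and 0.60 (0.386 to 0.922) at Cyp2b23. Around Cyp2b19 and Cyp2b23, 81.3% and 91.8% of the runs of 36 bases were found once in the genome. None of the 6 genes had a RARα peak with a score above 20 in either place.

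The pathway list held 19 genes of receptors, electron donors, conjugating enzymes and transporters. All 19 had an RXRα region within 10 kb, 14 a RARα peak with a score above 20 and 12 a co-localized one, against 39.8%, 52.2% and 23.5% of all genes. The median ratio of RXRα to input was 2.69, against 2.52 over the 8 Cyp genes. Nr1i2, the PXR gene, had the highest ratio of the list with 8.47 (7.29 to 9.90), 272 RXRα reads in its highest bin and a RARα score of 70. Nr1i3, the CAR gene, had a ratio of 3.56 (3.04 to 4.19) and a RARα score of 64. Por, which passes electrons to all microsomal cytochromes P450, had a ratio of 7.37 (6.14 to 8.91) and a RARα score of 27. Alas1, the first enzyme of heme synthesis, had the highest RARα score of the list, 246, with a ratio of 2.69 (2.26 to 3.22). The lowest ratio was that of Hnf4a with 1.48 (1.17 to 1.87). The highest RARα score had a median of 46 in this list and of 6 in the 8 Cyp genes, with a median of 23 over all genes. A gene with no RARα peak within 10 kb counted as 0, which held for 4 of the 8 Cyp genes. The median of 6 therefore lies between 0 and the 12 of Cyp3a25 and is the score of no gene.

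Among all 98 Cyp genes, 71 had an RXRα region within 10 kb, 41 a RARα peak with a score above 20 and 31 a co-localized one, with a median ratio of RXRα to input of 2.06. The 15 Cyp2c genes had a region at 14 and a RARα peak at 4, and the 6 Cyp4a genes a region at 6 and a RARα peak at 1. In highest RXRα ratio and RARα score, the Cyp genes nearest to Cyp3a11 among the 90 outside the list were Cyp2c44, Cyp4b1 and Cyp2c65, and those nearest to Cyp2b10 were Cyp2d40, Cyp2a22 and Cyp2g1. Likeness was the distance on a log2 scale of both measures in 1 library each.

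Exact DR1 to DR5 and ER6 repeats of AGGTCA or AGTTCA, on both strands, were in none of the 21 RXRα regions or 23 RXRα summits of the 8 genes within 100 bp. In all 42117 RXRα regions the shares with them ranged from 0.0404% for ER6 to 0.615% for DR1. At least 1 exact half-site stood within 100 bp of 9 of the 21 regions (42.9%) against 48.7% of all regions, and of 14 of the 23 summits, against 50.7% of the 28840 summits of all genes. With 1 half-site allowed to differ at 1 base, 5 summits held a repeat, and these were Cyp3a11 at 3, Cyp3a25 at -8839 and -135 and Cyp2b10 at -2270 and 22018. The relaxed DR1 of Cyp3a25 was in 5.06% of all RXRα regions, and the relaxed DR4 and DR5 of Cyp2b10 at -2270 in 2.03% and 1.70%. No region of the 8 genes held a relaxed DR4 within 100 bp of its highest bin. Taken singly, the relaxed repeats were in 0.596% (ER6) to 5.06% (DR1) of all regions. The share of all regions or summits with any relaxed repeat was not calculated, so the count of 5 has no background beside it. A match of letters is a description and not a binding site.

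Repeated sequence limited how far reads could be placed. Within 10 kb of the start, the share of runs of 36 bases found once in the genome was 94.5% at Cyp2b10, 90.8% at Cyp3a13, 75.5% at Cyp3a11, 75.03% at Cyp3a25 and 66.7% at Cyp3a16. It was 43.7% at Cyp2b9, 38.4% at Cyp2b13 and 30.1% at Cyp3a41a, and 13.2% over the body of Cyp3a41a. With runs of 50 bases these last 3 rose to 56.9%, 49.7% and 40.5%. Input had 4.65 reads per kb (exact Poisson 95% interval 3.75 to 5.70) at Cyp2b9, 4.10 (3.26 to 5.09) at Cyp2b13 and 5.55 (4.57 to 6.68) at Cyp3a41a, against a median of 4.05 over all genes. It was higher at Cyp3a13 with 8.80 (7.55 to 10.2), Cyp3a25 with 8.70 (7.46 to 10.1), Cyp2b10 with 7.60 (6.44 to 8.91) and Cyp3a11 with 7.10 (5.98 to 8.37), and Cyp3a16 had 5.60 (4.61 to 6.74). Per kb of the window none of the 8 was below the median of all genes. All input reads of the window were also divided by its kb of sequence found once. This gave 18.4 at Cyp3a41a, 11.6 at Cyp3a25, 10.7 at Cyp2b13, 10.6 at Cyp2b9, 9.69 at Cyp3a13 and 8.05 at Cyp2b10. Reads in repeated sequence stayed in these counts while only the length was cut, so the values are not input density in unique sequence.

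**Figure D5:**
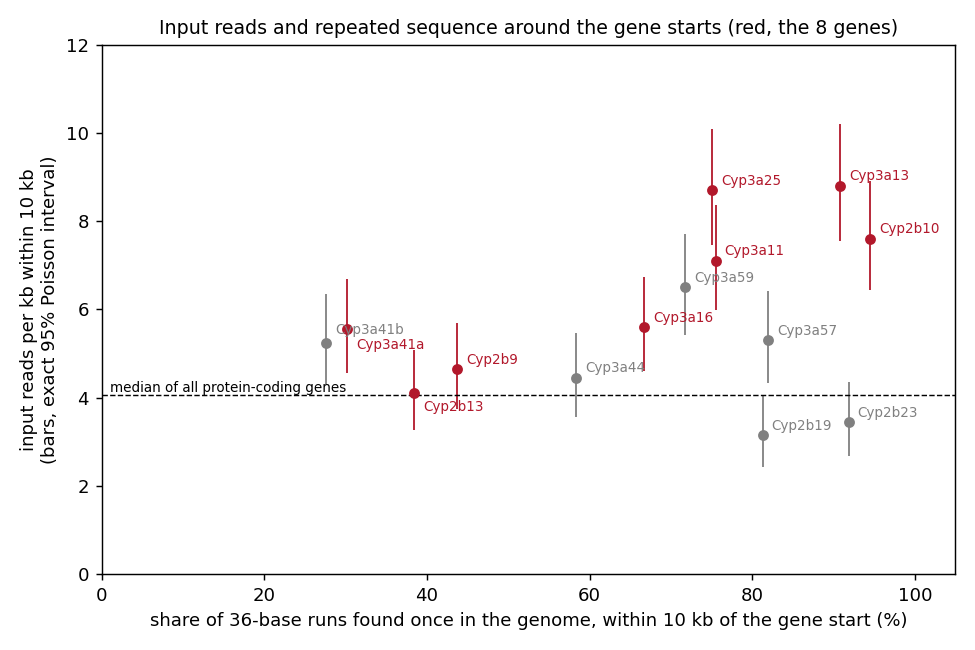
Input reads per kb within 10 kb of the gene start, with exact 95% Poisson intervals, against the share of 36-base runs found once in the genome, for the 8 genes (red) and the other Cyp3a and Cyp2b genes (grey). Cyp3a41a, Cyp2b9 and Cyp2b13 have 30.1 to 43.7% of their runs found once and 4.10 to 5.55 input reads per kb.

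The study describes its reads as uniquely mapped, yet the tracks held reads in sequence that a run of 36 bases could not tell apart. At the Cyp3a41a summits at 4847 and 12559 no run of 36 bases was found only once, and each was an exact copy of Cyp3a41b, where 58 and 98 RXRα reads stood beside the 55 and 84 of Cyp3a41a. Input had 5 and 3 reads at Cyp3a41b and 2 and 3 at Cyp3a41a. At the summits of Cyp2b9 and Cyp2b13, 31.8% and 30.8% of the runs were found once, so that part of the reads could be told apart. Around the bin called as the RXRα region of Cyp2b9, 8.96% of the runs were found once. Of the 23 summits, 10 had every run found once and 5 had under 50% of runs found once, which were the 3 of Cyp3a41a and the upstream ones of Cyp2b9 and Cyp2b13. At the third Cyp3a41a summit, at 5583, 30.3% were found once. The reads at 4847 and 12559 therefore cannot be assigned to Cyp3a41a or to Cyp3a41b, and a fold of 1 gene over the other was not calculated.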

How the data were processed

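Livers of wild type mice gave 1 library each for RXRα, RARα and input. Per the labels, reads were aligned with Bowtie, and the study's methods name MACS for the peaks. The authors deposited RXRα and input as a signal, which is whole-number read coverage in 32 bp bins of mm9. Each read covers 5 bins, and read positions were recovered from the coverage, which gave 10000000 reads per track, mitochondrial reads included. The study describes more uniquely mapped RXRα reads than this, so the tracks do not hold its full depth. For RARα, the authors deposited a peak list with a score and a false discovery rate in percent. The depth of that library is not in the list, and the study kept scores above 20 and states a cut-off of 20 fold of input, without saying whether the score is that fold. The track headers name mm9 and the study's methods also name mm10, so coordinates, sequence and genes here are those of NCBI37/mm9 with GENCODE M1. How reads of repeated sequence were placed in the tracks is not given in the sources used here.

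An RXRα region is a run of bins with RXRα reaching 20 times input, local or mean (0.603 reads per bin), whichever was larger, with bins within 200 bp joined. A bin with no input read needs 13 RXRα reads to pass. An RXRα summit is the highest bin of at least 20 RXRα reads, with no second one within 512 bp. This definition was added after the tracks had been examined, since input was raised under the highest RXRα bins. A RARα peak counted when its score was above 20, and it was co-localized when 25% of the narrower of both intervals was shared with an RXRα region. Peaks, regions and summits counted for a gene within 10 kb of its start or over its body. RXRα reads over input reads have an exact (Clopper-Pearson) 95% interval and input counts an exact Poisson interval. Both cover counting error only, since PCR copies cannot be told from separate molecules. Uniqueness is the share of positions whose run of 36 bases, on either strand, is found once in the genome. Identity between elements was taken from local alignments of 201 bases around their summits, made with Biopython 1.88. The calculation of reads, regions and overlaps was tested on simulated data.

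The members, the lists and the settings were chosen with earlier results of these data known. Named genes were the 8 members, all other Cyp3a and Cyp2b genes, a list of 19 receptor and drug disposition genes, and the 3 Cyp genes nearest to Cyp3a11 and to Cyp2b10 in highest RXRα ratio and RARα score. With 1 library per antibody there is no replicate check, so no test was run and no p-value is given. Alternatives changed the score and ratio thresholds, the distance, the overlap, the window, the length of the runs and the motif window. Python 3.11.15, numpy 2.4.6, pandas 2.3.3, scipy 1.17.1 and matplotlib 3.10.9 were used.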

Additional observations from a re-analysis of the deposited data

How the results depend on the processing

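No paired analysis was possible because there was 1 library per antibody and no result came from a test. With a RARα score above 50, 1 gene in place of 3 had a RARα peak within 10 kb of its start (24.6% of all genes) or over its body (17.0%), and 1 in place of 2 had a co-localized one (10.9%). With no score threshold, 5 genes had a RARα peak over the body, near the 61.7% of all genes. With RXRα at least 30 times input, 5 genes had a region within 10 kb (27.9% of all genes) and 3 over the body (25.2%), and with 5 times input 8 had one over the body (73.1%). Within 1 kb, 3 genes had an RXRα region (21.6%) and 1 a co-localized RARα peak (15.8%). The other alternatives for these 5 counts stayed within 1.5 times of the values given. The pooled ratio of RXRα to input, 2.62, was 1.84 without the bins of RXRα regions, 1.34 over the gene bodies, 4.80 within 1 kb and 2.15 without bins that had no input read. It turned below 1 over the bodies of Cyp3a25 (0.579) and Cyp2b9 (0.694) and within 1 kb of Cyp3a16 (0.556, interval 0.229 to 1.27). All input reads of the 8 windows divided by their kb of unique sequence gave 10.1, in place of 6.51 per kb of window. Reads in repeated sequence were not taken out of that count. The share of unique runs over the 8 windows was 64.3% with 36 bases and 73.4% with 50. After the data had been seen, half-sites with up to 1 mismatch were also searched, which gave a repeat at 7 regions or RARα summits and at 5 RXRα summits in place of 0. The share of all regions or summits with any such repeat was not calculated, so these counts have no background. The depth of 10000000 reads left 0 to 11 input reads at a summit, so single ratios have wide intervals. A difference between libraries could not be told apart from a difference between antibodies.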
